A study of Mus musculus with 39 samples.

Results

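The genes described here are 9 transcription factors of naive pluripotency, *Klf2*, *Klf4*, *Klf5*, *Esrrb*, *Tfcp2l1*, *Zfp42*, *Tbx3*, *Nr0b1* and *Nr5a2*, chosen by symbol from the 47643 genes counted in both tables of the series. All 9 were found once in each table. Bulk RNA-seq was read in 35 libraries of single mouse epiblasts and in 4 libraries of epiblast stem cell (EpiSC) lines. The epiblasts were *Stat3* null (4) or wild type (WT, 2) at embryonic day E5.5, null (8) or WT (9) at E6.5, and null (3) or WT (9) at E7.5. All came from natural matings between *Stat3* heterozygotes on the outbred CD1 background, in which a neomycin resistance gene replaces a part of *Stat3*. The null allele is present in every tissue, the extraembryonic ones included, and reads on the exons that remain were still counted on *Stat3*. Genotype was read by PCR on the extraembryonic tissue, and each epiblast was freed by hand from extraembryonic ectoderm and visceral endoderm. The EpiSC lines, null lines 2 and 6 and WT lines 8 and 13, were each started from 1 epiblast and kept without LIF in N2B27 with FGF2, Activin A and the tankyrase inhibitor XAV-939 on fibronectin.

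Naive pluripotency is the state of the preimplantation epiblast and of mouse embryonic stem cells kept with LIF. LIF acts through its receptor, gp130 (*Il6st*) and JAK kinases to activate STAT3, which in embryonic stem cells induces *Tfcp2l1*, *Klf4* and other members of this set. The factors bind near one another's genes and near *Pou5f1*, *Sox2* and *Nanog*, and most are silenced as the epiblast passes after implantation through the formative to the primed state, which EpiSCs hold in culture. Several of them also have uses outside the epiblast: *Klf5*, *Esrrb*, *Tfcp2l1* and *Zfp42* are expressed in trophoblast, and *Tbx3* and *Klf5* in endoderm, so markers of both neighbouring tissues are given beside the results.

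*Stat3* itself, the targeted gene, was read at 1.22 to 22.7 CPM (the count relative to the library total, scaled by the trimmed mean of M values) in the null epiblasts and at 4.63 to 51.1 CPM in the WT epiblasts. The null groups lay below the WT groups at E5.5 and E7.5 with no overlap, and overlapped them at E6.5, where 1.43 to 8.10 CPM stood against 5.66 to 28.9 CPM. Libraries held 22941210 to 79013960 counts in epiblasts and 63445877 to 127583699 in EpiSCs, so that a count of 0, which allows up to 3 counts, allows a level of 0.038 to 0.131 CPM and to 0.0235 to 0.0473 CPM. Markers of other tissues varied widely. *Elf5*, a defining factor of extraembryonic ectoderm, exceeded 50 CPM in 5 of the 35 epiblast libraries (58.1 to 277 CPM: E5.5 null 1, 2 and 4, E5.5 WT 1 and E6.5 null 1) and was at most 12.1 CPM in the other 30. The summed level of 16 visceral endoderm markers exceeded 1000 CPM in 19 libraries, among them every E5.5 epiblast but null 1, and ranged from 48.1 to 12860 CPM over all. The library labelled E5.5 null 1 stood apart from its label: *Pou5f1*, which defines the epiblast, was at 0.662 CPM there, *Hnf4a*, *Apob* and *Ttr* were at 0, and 11 extraembryonic ectoderm markers summed to 1643 CPM. E7.5 WT 3 held 1179 CPM of 6 epiblast markers against 276 to 607 CPM in the other 8 WT epiblasts of that day. Several results that rest on these libraries are given with and without them. The order of the groups, the correlations and most values for the change in genotype effect from E5.5 to E6.5 include them. The EpiSC lines held 22.7 to 24.6 CPM of extraembryonic ectoderm and 9.35 to 18.4 CPM of visceral endoderm markers, and 1368 to 1571 CPM of epiblast markers. In bulk samples, fewer cells of a type and less RNA per cell cannot be told apart.

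The sequence just upstream of a member is shown where a search for 3 binding motifs bears on the STAT3 and KLF inputs described above. RefSeq promoter windows of GRCm38.p6 were on hand for 7 of the 9 members (9 windows), all except *Klf5* and *Tbx3*, and 250 bases before each start were searched on both strands for TTCNNNGAA (the spaced palindrome that STAT dimers bind), AAGGTCA (the site of ESRRB and NR5A2) and GGGTGTGG (a KLF site). TTCNNNGAA occurred in 1 of the 9 windows, the more upstream of the *Esrrb* windows, against 7.02% of all 32851 windows of this length. GGGTGTGG occurred in 1 window, that of *Zfp42*, against 3.20% of all windows, and AAGGTCA in none, against 4.08%. These matches are descriptions of letters in short windows, and no binding was measured. The windows of *Esrrb* (chr12:86360867-86361116, plus strand, match at chr12:86360939-86360947) and of *Zfp42* (chr8:43307010-43307259, minus strand, match 75 to 68 bases before the start on the other strand) are printed 5′ to 3′ with the match in capitals, followed by that of *Tfcp2l1* (chr1:118627695-118627944, plus strand), the best known STAT3 target of the set, which held no match.
Esrrb: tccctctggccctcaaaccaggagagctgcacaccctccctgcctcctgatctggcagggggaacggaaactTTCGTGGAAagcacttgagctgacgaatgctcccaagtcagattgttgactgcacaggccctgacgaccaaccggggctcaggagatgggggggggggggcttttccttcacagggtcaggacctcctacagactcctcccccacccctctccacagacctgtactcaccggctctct
Zfp42: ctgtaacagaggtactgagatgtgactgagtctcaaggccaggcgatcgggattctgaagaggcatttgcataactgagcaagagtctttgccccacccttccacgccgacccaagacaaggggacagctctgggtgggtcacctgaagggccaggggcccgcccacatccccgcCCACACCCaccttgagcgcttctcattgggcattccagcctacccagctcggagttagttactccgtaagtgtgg
Tfcp2l1: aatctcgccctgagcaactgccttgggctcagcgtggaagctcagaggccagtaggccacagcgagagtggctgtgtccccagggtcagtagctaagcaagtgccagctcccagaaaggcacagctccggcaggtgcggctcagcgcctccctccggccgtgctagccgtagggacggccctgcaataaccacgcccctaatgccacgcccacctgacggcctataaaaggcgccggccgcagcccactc

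The members differed widely in level from epiblast to epiblast of the same day and genotype, as the plot of all 9 by group shows. *Tfcp2l1* (ENSMUSG00000026380.10, chr1:118627945-118685168, plus strand) encodes a grainyhead-related factor that, in embryonic stem cells, carries much of the effect of STAT3 on self-renewal. At E5.5 it was read at 93.1, 82.0, 74.6 and 105 CPM in null epiblasts 1 to 4 and at 87.2 and 62.5 CPM in WT 1 and 2. At E6.5 the null epiblasts ranged from 5.51 to 52.1 CPM (median 17.2) and the WT epiblasts from 0.910 to 34.7 CPM (median 2.64). At E7.5 the null epiblasts were at 2.19, 1.64 and 4.94 CPM, and the WT epiblasts ranged from 1.49 to 34.02 CPM (median 11.6). The genotypes therefore overlapped on every day, with E6.5 WT 3 and E7.5 WT 6 the highest WT epiblasts of their day. A small nuclear RNA gene on the same strand shares 130 exon bases with *Tfcp2l1*, so reads there cannot be assigned to one or the other.

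*Klf4* (ENSMUSG00000003032.8, chr4:55527143-55532466, minus strand) encodes a zinc-finger factor that STAT3 induces in embryonic stem cells. It was read at 3.64, 7.27, 4.41 and 1.93 CPM in the E5.5 null epiblasts and at 14.3 and 4.73 CPM in the WT ones. At E6.5 it ranged from 1.26 to 5.68 CPM in null (median 2.92) and from 0 to 4.85 CPM in WT epiblasts (median 1.01). At E7.5 it was at 1.67, 2.61 and 3.02 CPM in null epiblasts and at 2.24 to 8.99 CPM (median 5.57) in WT epiblasts, of which only WT 3 lay within the null range. *Klf5* (ENSMUSG00000005148.7, chr14:99298691-99315036, plus strand), a related factor needed in the early blastocyst, varied more within its groups. At E5.5 it was read at 188, 75.0, 35.5 and 94.6 CPM in the null and at 91.4 and 17.6 CPM in the WT epiblasts. At E6.5 the null epiblasts ranged from 4.65 to 72.9 CPM (median 10.9) and the WT epiblasts from 1.28 to 25.1 CPM (median 3.14). At E7.5 the null epiblasts were at 4.76, 2.61 and 5.23 CPM, and the WT epiblasts ranged from 2.78 to 24.3 CPM (median 14.5). Again E7.5 WT 3 was the lowest WT epiblast, the only one not above all 3 null ones.

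*Klf2* (ENSMUSG00000055148.7, chr8:72319033-72321656, plus strand), the third KLF of the set, which in embryonic stem cells responds to MEK inhibition rather than to LIF, was low throughout. At E5.5 it was read at 11.3, 1.42, 0 and 2.48 CPM in the null and at 3.35 and 0.981 CPM in the WT epiblasts. At E6.5 it ranged from 0 to 3.97 CPM in null (median 0.349) and from 0 to 1.35 CPM in WT epiblasts (median 0), too low for a test there. At E7.5 it was at 0.274, 0 and 1.32 CPM in the null and at 0 to 4.55 CPM (median 1.16) in the WT epiblasts. The highest of its values was in E5.5 null 1, the library with hardly any *Pou5f1*.

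*Esrrb* (ENSMUSG00000021255.17, chr12:86361117-86521628, plus strand) encodes an orphan nuclear receptor of the naive network that trophoblast stem cells use as well. It was read at 226, 96.4, 6.30 and 85.7 CPM in the E5.5 null epiblasts and at 45.8 and 0 CPM in the WT ones. At E6.5 it was at 77.9 CPM in null 1 and at 1.51 to 5.67 CPM in the other null epiblasts (median of all 8, 4.15), and ranged from 0 to 5.11 CPM in WT epiblasts (median 1.22). At E7.5 it was at 1.40, 0.886 and 0.216 CPM in the null epiblasts and from 0 to 1.54 CPM in the WT ones (median 0.988). The epiblasts above 40 CPM of *Esrrb* were those above 50 CPM of *Elf5*, namely E5.5 null 1, 2 and 4, E5.5 WT 1 and E6.5 null 1, and no other epiblast exceeded 6.30 CPM. The count of 0 in E5.5 WT 2 was not typical of that library, in which 10 of 11438 genes found at 1 CPM or more in every other E5.5 library were at 0. In E6.5 WT 3, 29 of 10209 genes found at that level in every other E6.5 library were at 0. *Esrrb*, at 0.305 CPM in E6.5 WT 7, is not among these 10209 genes, so that count does not bear on its 0 in WT 3.

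*Zfp42* (ENSMUSG00000051176.5, chr8:43295063-43306980, minus strand), the classical naive marker also called REX1, was read at 129, 51.9, 19.6 and 49.8 CPM in the E5.5 null and at 49.9 and 18.1 CPM in the E5.5 WT epiblasts. At E6.5 it ranged from 1.62 to 57.7 CPM in null (median 6.49) and from 0.802 to 8.81 CPM in WT epiblasts (median 1.85). At E7.5 it was at 0.324, 0.752 and 0 CPM in null and at 0 to 1.18 CPM (median 0.481) in WT epiblasts. It was thus lower in every E7.5 epiblast than in any E5.5 epiblast. A processed pseudogene, Zfp42-ps1, is identical to it at 98.1% of 266 aligned bases, so that reads from these bases may be split between the copies.

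*Tbx3* (ENSMUSG00000018604.18, chr5:119670669-119684724, plus strand), a T-box factor that supports self-renewal of embryonic stem cells and also directs extraembryonic endoderm, took another course. At E5.5 it was read at 13.1, 136, 97.9 and 82.5 CPM in the null and at 43.4 and 47.9 CPM in the WT epiblasts. At E6.5 it ranged from 7.99 to 79.0 CPM in null (median 20.8) and from 1.64 to 43.9 CPM in WT epiblasts (median 3.51). At E7.5 it was at 5.04, 8.22 and 28.1 CPM in the null and at 2.63 to 96.2 CPM (median 50.8) in the WT epiblasts. Unlike *Zfp42* and *Esrrb* it was as high in some E7.5 WT epiblasts as in any E5.5 epiblast but null 2 and null 3. The antisense gene *Tbx3os1* shares 115 exon bases with it, and the strand setting of the counting is not given in the sources used here.

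The orphan nuclear receptors *Nr0b1* (DAX1, ENSMUSG00000025056.4, chrX:86191764-86195947, plus strand), a cofactor without a DNA-binding domain of the usual kind, and *Nr5a2* (LRH1, ENSMUSG00000026398.14, chr1:136842571-136960448, minus strand), which binds the same kind of site as ESRRB, were low. *Nr0b1* was read at 14.96, 10.6, 0 and 0.340 CPM in the E5.5 null epiblasts, 0 and 0.911 CPM in the E5.5 WT ones, and at most 4.18 CPM in any later epiblast. *Nr5a2* stayed between 0 and 5.23 CPM in all 35 epiblasts, with the highest value in E5.5 null 4. Neither receptor separated any epiblast groups that were compared.

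**Figure D1:**
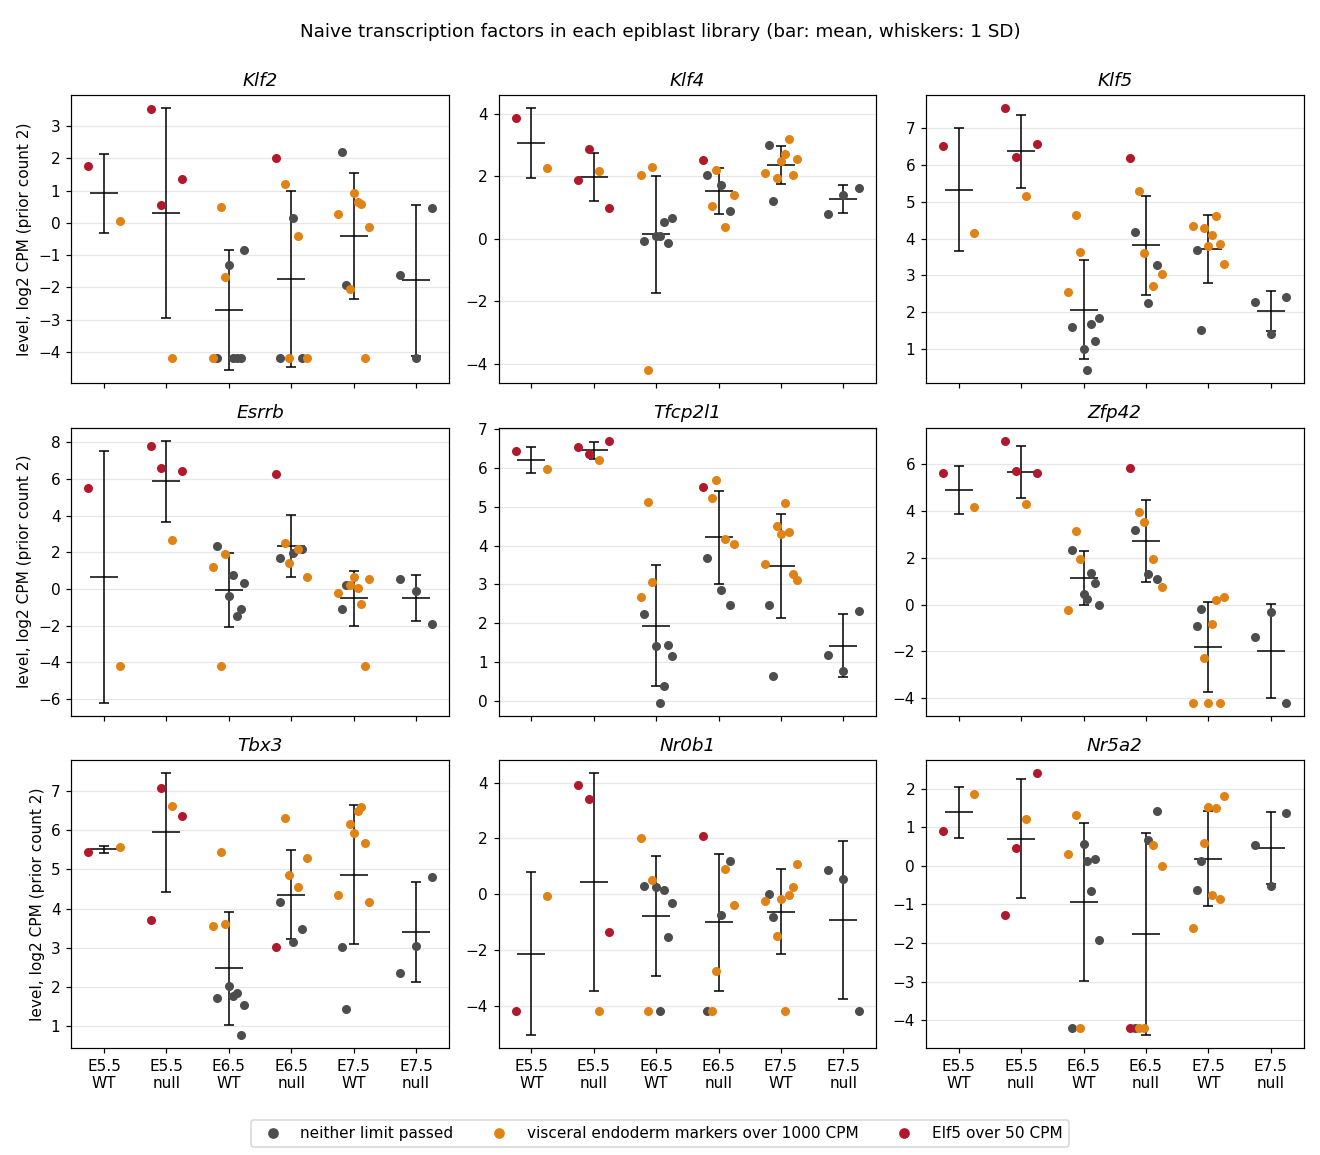
Level of each member in every epiblast library (log2 CPM, vertical axis) by stage and genotype (horizontal axis), with group means and SD; red points mark libraries over 50 CPM of Elf5, orange points those over 1000 summed CPM of visceral endoderm markers, grey points neither. Red points lie at the top of the Esrrb panel, and the E7.5 WT values of Tbx3 reach those of E5.5.

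From E5.5 to E6.5 *Zfp42* fell in WT epiblasts by 3.54 on the log2 scale (SE 0.668). Of the 9 members 8 had a negative fold change, with a median of -2.96 against 0.10 over all 20763 genes tested. *Zfp42* was the 1 member past both thresholds, an absolute log2 fold change over 1 and an adjusted p under 0.05 (adjusted p = 0.00733 by the quasi-likelihood test of edgeR, adjusted as by Benjamini and Hochberg), beside 5.15% of all genes. At an unadjusted p under 0.05 there were 6 members, beside 23% of all genes, and DESeq2 called 4 and voom with sample quality weights 6, beside 10.3% of all genes with each tool. *Tfcp2l1* (log2 fold change -3.40, SE 0.986, edgeR adjusted p = 0.0590) and *Klf5* (-3.06, SE 0.884, adjusted p = 0.0547) were just short of the threshold. *Zfp42* and *Tfcp2l1* were lower in all 9 E6.5 than in both E5.5 WT epiblasts, as were 8.62% of all genes. *Esrrb* (-3.72, SE 1.46, adjusted p = 0.151), *Klf2* (-2.96, SE 1.79, adjusted p = 0.354), *Klf4* (-2.44, SE 1.001, adjusted p = 0.157), *Tbx3* (-2.25, SE 0.945, adjusted p = 0.182) and *Nr5a2* (-1.59, SE 1.36, adjusted p = 0.538) did not pass by edgeR's test, nor did *Nr0b1*, the member with a positive value (1.27, SE 1.95, adjusted p = 0.779). The sign of *Esrrb* was not stable: it stood at 0.33 with voom, at 0.37 with the replicate number as a block, and at 9.15 without E5.5 WT 1, which left a single E5.5 library with 0 counts of it.

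This WT comparison rests on 2 epiblasts at E5.5, which lay far apart in *Klf5*, *Zfp42* and *Esrrb*. Without E5.5 WT 1, the one over 50 CPM of *Elf5*, no member passed, and *Zfp42* stood at -2.66 (edgeR adjusted p = 0.211); under the replicate block no member passed either. Without E6.5 WT 3, which held 6413 CPM of visceral endoderm markers and was the highest of its group in 6 of the 9 members, 5 members passed and fell: *Klf4* (-2.31), *Klf5* (-3.73), *Tfcp2l1* (-4.39), *Zfp42* (-3.995) and *Tbx3* (-3.14). In that fit 8 of 11 extraembryonic ectoderm markers passed as well, and the share of all genes called was not counted. Without E5.5 WT 2, 2 members passed, *Zfp42* and *Esrrb* (-4.76, adjusted p = 0.0479). Leaving out either E5.5 WT epiblast leaves 1 in that group, which is then assumed to vary like those of E6.5. The E5.5 WT epiblasts held 6517 and 7935 CPM of visceral endoderm markers against a median of 221 CPM at E6.5 (103 to 6413 CPM, the highest in WT 3), and its part in these differences was not tested.

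In null epiblasts the same step gave a negative fold change for all 9 members (median -1.95 against 0.02 over all 18352 genes), yet no member passed edgeR's test, beside 1.98% of all genes. At an unadjusted p under 0.05 there were 5 members (18.3% of all genes), and 3 were called by DESeq2 (*Esrrb*, *Klf5* and *Tfcp2l1*, beside 5.65% of all genes) and 5 by voom with sample quality weights (beside 10.4%). *Tfcp2l1* was nearest (log2 fold change -1.89, SE 0.505, edgeR adjusted p = 0.0569), with all 8 E6.5 below all 4 E5.5 null epiblasts, as in 1.92% of all genes. *Klf5* stood at -2.22 (SE 0.694, adjusted p = 0.101), *Zfp42* at -2.28 (SE 0.873, adjusted p = 0.175), *Esrrb* at -3.01 (SE 1.11, adjusted p = 0.160) and *Tbx3* at -1.63 (SE 0.634, adjusted p = 0.181). For the low genes the values were *Nr0b1* -2.44 (SE 1.51), *Klf2* -1.95 (SE 1.69) and *Nr5a2* -1.53 (SE 1.59), with edgeR adjusted p = 0.452, 0.630 and 0.711, and *Klf4* stood at -0.48 (SE 0.564, adjusted p = 0.758).

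The null count moved when any of 3 libraries was left out. Without E6.5 null 1, which held 182 CPM of *Elf5* and was the highest E6.5 null epiblast in 6 of 9 members, 4 members passed edgeR's test and fell: *Esrrb* (-4.84), *Zfp42* (-3.26), *Klf5* (-2.84) and *Tfcp2l1* (-2.08). Without E6.5 null 3 *Tbx3* passed (-2.09, adjusted p = 0.0490), and without E6.5 null 4 *Tfcp2l1* did (-2.14, adjusted p = 0.0348). The share of all genes called was not counted in these fits. Without E5.5 null 1, the library that goes against its label, none passed and the median was -1.68. The fit without E6.5 null 1 kept E5.5 null 1, 2 and 4, which are also over 50 CPM of *Elf5*. Leaving out every null library over that limit leaves E5.5 null 3 alone at E5.5. The values were then -0.81 for *Esrrb*, -1.60 for *Zfp42*, -1.37 for *Klf5* and -1.84 for *Tfcp2l1*.

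Between E6.5 and E7.5 the WT members moved apart rather than together. *Klf4* rose by 1.67 on the log2 scale (SE 0.580, edgeR adjusted p = 0.0390), *Tbx3* rose by 2.29 (SE 0.742, adjusted p = 0.0318), and *Zfp42* fell by 2.61 (SE 0.835, adjusted p = 0.0255). Thus 2 members passed upward, beside 5.74% of all 17191 genes, and 1 passed downward, beside 3.09%. The median over the members was 1.08 against 0.01 over all genes. *Klf2* (2.23, SE 1.14, adjusted p = 0.165), *Klf5* (1.21, SE 0.520, adjusted p = 0.0968) and *Tfcp2l1* (1.08, SE 0.662, adjusted p = 0.263) did not pass edgeR's test, and *Esrrb*, *Nr0b1* and *Nr5a2* lay between -0.94 and 0.75. No member separated the groups of this step, as 2.4% of all genes did. At an unadjusted p under 0.05 there were 4 members, beside 36.1% of all genes, and DESeq2 called 3 members and voom with sample quality weights 5, beside 10.4% and 15.2% of all genes.

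Of the 16 visceral endoderm markers, 4 rose over the same interval by edgeR's test (3 to 13 when single libraries were left out, the 13 without E6.5 WT 3), led by *Sox17*, a definitive and visceral endoderm factor (4.27, adjusted p = 0.000187), and their summed level was 501 to 4684 CPM in E7.5 WT against 103 to 6413 CPM in E6.5 WT epiblasts (medians 1875 and 221 CPM). When the epiblasts over 1000 CPM were left out, 2 remained at E7.5 and no member passed. *Tbx3* then stood at 0.78 (adjusted p = 0.494), *Klf4* at 2.19 (adjusted p = 0.101) and *Zfp42* at -1.69 (adjusted p = 0.375). The 7 E7.5 WT epiblasts over that limit held 17.9 to 96.2 CPM of *Tbx3* and the other 2 held 2.63 and 8.03 CPM. For *Tfcp2l1* the corresponding values were 8.57 to 34.02 CPM against 1.49 and 5.44 CPM. *Elf5* was at most 2.84 CPM in every WT epiblast of these 2 days.

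The calls of this step were close to the threshold. *Klf4* was no longer called without any one of E6.5 WT 2, 5, 6, 7, 8 and 9 and E7.5 WT 2, 5, 6, 7 and 9 (edgeR adjusted p between 0.0560 and 0.0739, fold change 1.55 to 1.67). *Tbx3* was no longer called without any one of E6.5 WT 2, 5, 6, 7, 8 and 9 and E7.5 WT 4, 5, 6 and 7 (adjusted p between 0.05001 and 0.0592, fold change 2.08 to 2.23), and *Zfp42* without E6.5 WT 3 (-2.18, adjusted p = 0.0520). Without E6.5 WT 3, however, 5 members passed upward, namely *Klf2* (3.24), *Klf4* (1.496), *Klf5* (1.86), *Tfcp2l1* (2.05) and *Tbx3* (3.15), and without E7.5 WT 3 *Klf5* passed as well (1.35, adjusted p = 0.0484). How many of all genes passed in these fits was not counted.

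In null epiblasts no member passed edgeR's test from E6.5 to E7.5, beside 0.103% of all 19460 genes, and 4 members had an unadjusted p under 0.05, beside 8.13%. DESeq2 called 3 (*Esrrb*, *Tfcp2l1* and *Zfp42*, beside 1.71% of all genes) and voom with sample quality weights 0, beside 2.25%. All 3 were lower in each of the 3 E7.5 than in each of the 8 E6.5 null epiblasts, as were 2.16% of all genes. *Zfp42* stood at -5.17 (SE 1.52, edgeR adjusted p = 0.291), *Esrrb* at -3.95 (SE 1.43, adjusted p = 0.448), *Tfcp2l1* at -3.06 (SE 0.763, adjusted p = 0.179) and *Klf5* at -2.34 (SE 0.846, adjusted p = 0.444), while *Klf2*, *Klf4*, *Tbx3*, *Nr0b1* and *Nr5a2* lay between -0.97 and 0.92. The median was -0.97 against -0.01 over all genes. Without E6.5 null 1 none passed either, and *Esrrb* stood at -2.14 and *Zfp42* at -4.19. The 3 E7.5 null epiblasts held 85.4 to 377 CPM of visceral endoderm markers, under the median of the E6.5 null epiblasts (1059 CPM), and the part of this in the differences was not tested. Since each step shares its E6.5 libraries with the one before and with the comparison of genotypes at E6.5, the fold changes of these comparisons are not independent of each other.

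**Figure D2:**
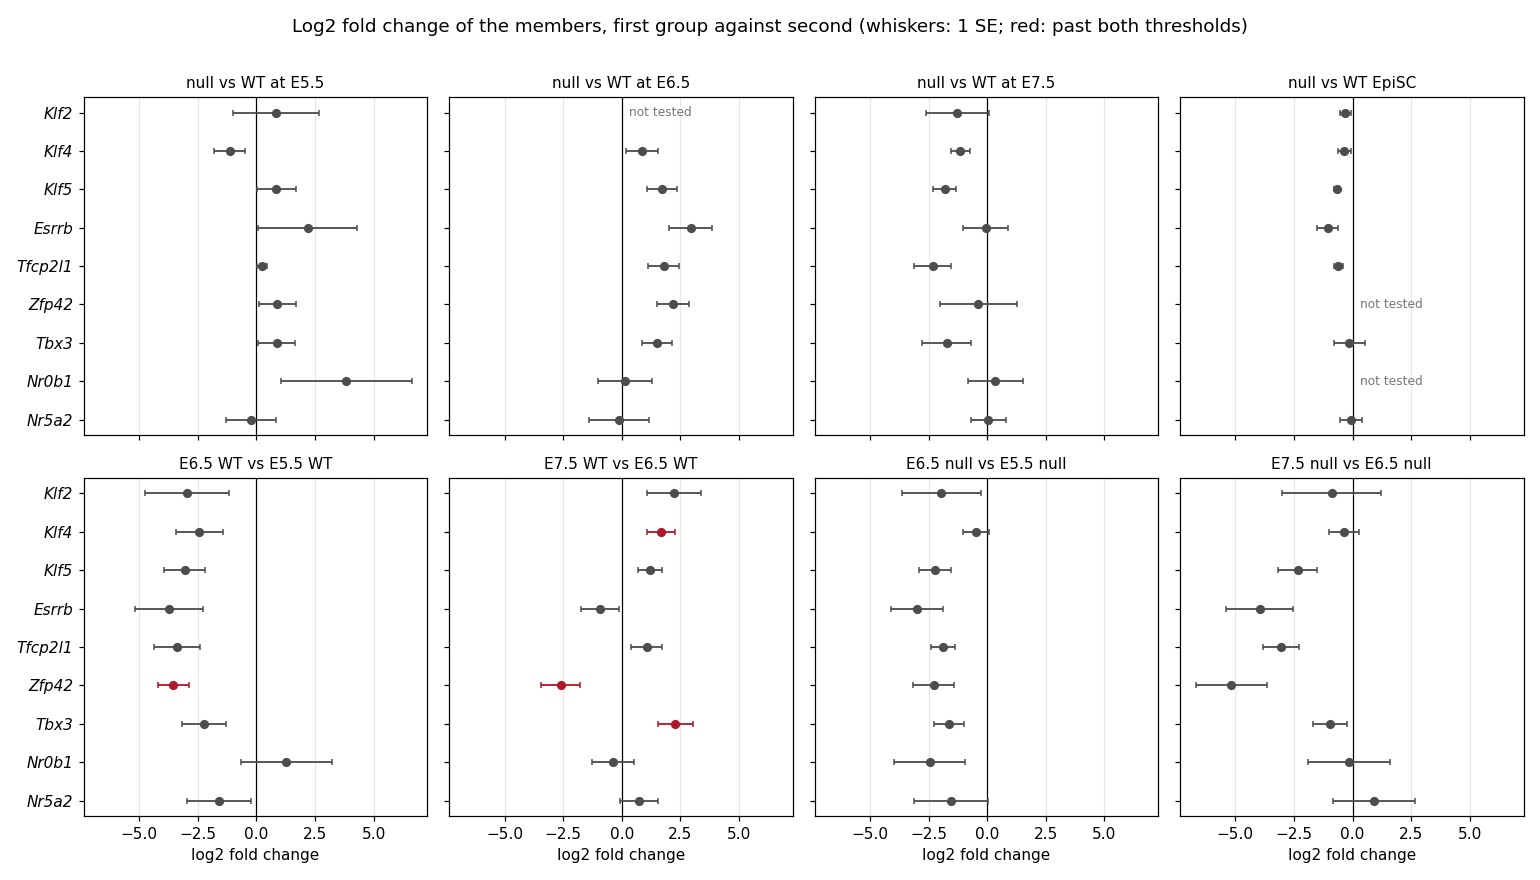
Log2 fold change of each member (horizontal axis, with 1 SE on either side) in the 4 comparisons of genotype and the 4 of stage, from edgeR. Red points passed both thresholds: Zfp42 from E5.5 to E6.5, and Klf4, Tbx3 and Zfp42 from E6.5 to E7.5, in WT epiblasts; no genotype comparison holds a red point.

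At E5.5 no member differed between null and WT epiblasts beyond the spread of the libraries. None of the 9 passed edgeR's test (adjusted p = 0.999 for each), beside 0% of all 18690 genes, and none had an unadjusted p under 0.05, beside 2.5%. DESeq2 and voom with sample quality weights also called 0 members, beside 0.178% and 0% of all genes, and no member separated the groups, as 11.7% of all genes did. The fold changes ran from -1.14 for *Klf4* (SE 0.665) to 2.19 for *Esrrb* (SE 2.11) and 3.84 for *Nr0b1* (SE 2.79), with a median of 0.86 against -0.01 over all genes, and the other 6 members, *Klf2*, *Klf5*, *Tfcp2l1*, *Zfp42*, *Tbx3* and *Nr5a2*, lay between -0.22 and 0.89. The largest values belong to genes read at 0 in a WT epiblast and at their highest in E5.5 null 1, and without that library the median was 0.26. Without E5.5 WT 1 it was 1.81, from a WT group of 1 library. With 2 WT epiblasts the standard errors ran from 0.22 (*Tfcp2l1*) to 2.79 (*Nr0b1*).

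At E6.5 the null epiblasts held more *Esrrb*, *Zfp42*, *Tfcp2l1*, *Klf5* and *Tbx3* RNA on average, but no member passed the test across all genes. The fold changes, null over WT, were 2.94 for *Esrrb* (SE 0.925, edgeR adjusted p = 0.424), 2.17 for *Zfp42* (SE 0.691, adjusted p = 0.424), 1.79 for *Tfcp2l1* (SE 0.665, adjusted p = 0.465), 1.72 for *Klf5* (SE 0.642, adjusted p = 0.465) and 1.502 for *Tbx3* (SE 0.638, adjusted p = 0.548). *Klf4*, *Nr0b1* and *Nr5a2* lay between -0.14 and 0.88, and *Klf2* was too low to be tested. The median of the 8 members was 1.61 against -0.01 over all 17095 genes. No gene of the series passed edgeR's test at this stage (0% of all genes), while 5 of the 8 members had an unadjusted p under 0.05, beside 8.27% of all genes. DESeq2 called 0 members, beside 0.209% of all genes, and voom with sample quality weights 2, *Tbx3* (2.34) and *Tfcp2l1* (2.59), beside 0.538%. No member separated the groups, as 0.0585% of all genes did, since the lowest null epiblasts lay within the WT range in each.

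Both neighbouring tissues leaned the same way at E6.5. All 16 visceral endoderm markers and all 10 extraembryonic ectoderm markers tested had a positive fold change in null epiblasts, none of them past the test, and the summed visceral endoderm level was 173 to 7616 CPM (median 1059) in null against 103 to 6413 CPM (median 221) in WT epiblasts. *Elf5* was above 50 CPM in null 1 alone. Without null 1 the fold changes were 1.12 for *Esrrb*, 1.201 for *Zfp42*, 1.12 for *Klf5*, 1.61 for *Tfcp2l1* and 1.65 for *Tbx3*. Without the epiblasts over 1000 CPM of visceral endoderm markers (4 null and 3 WT) they were 3.84, 3.09, 3.40, 2.92 and 1.90 in that order, and without both kinds of library 1.30, 1.11, 2.102, 1.85 and 2.04. No member passed in any of these fits. In the 3 null and 6 WT epiblasts under both limits, *Tbx3* was at 8.77 to 17.96 CPM against 1.64 to 4.02 CPM and *Zfp42* at 2.06 to 9.13 CPM against 0.924 to 5.01 CPM, and the means of *Klf5* were 10.8 against 2.52 CPM, of *Tfcp2l1* 8.54 against 2.37 CPM and of *Esrrb* 3.83 against 1.57 CPM. In these same epiblasts the summed visceral endoderm level was still 464 to 816 CPM in null against 103 to 467 CPM in WT. The extraembryonic ectoderm markers summed to 39.2 to 123 CPM against 30.9 to 60.5 CPM, and the part of these tissues was not tested. These subsets of libraries were chosen after the data were seen and carry no test of their own.

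Depth also differed within E6.5, since null 1 to 3 and WT 1 to 3 held over 40000000 counts each. Within the shallower libraries the fold changes were 1.34 for *Esrrb*, 1.18 for *Zfp42*, 2.74 for *Tfcp2l1*, 1.01 for *Klf5* and 2.29 for *Tbx3* (edgeR adjusted p between 0.0888 and 0.425). Within the deeper ones they were 3.56, 2.50, 1.07, 1.94 and 0.84 in that order (adjusted p = 1 for each). All 5 were positive in both depth groups, with none called in either.

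**Figure D3:**
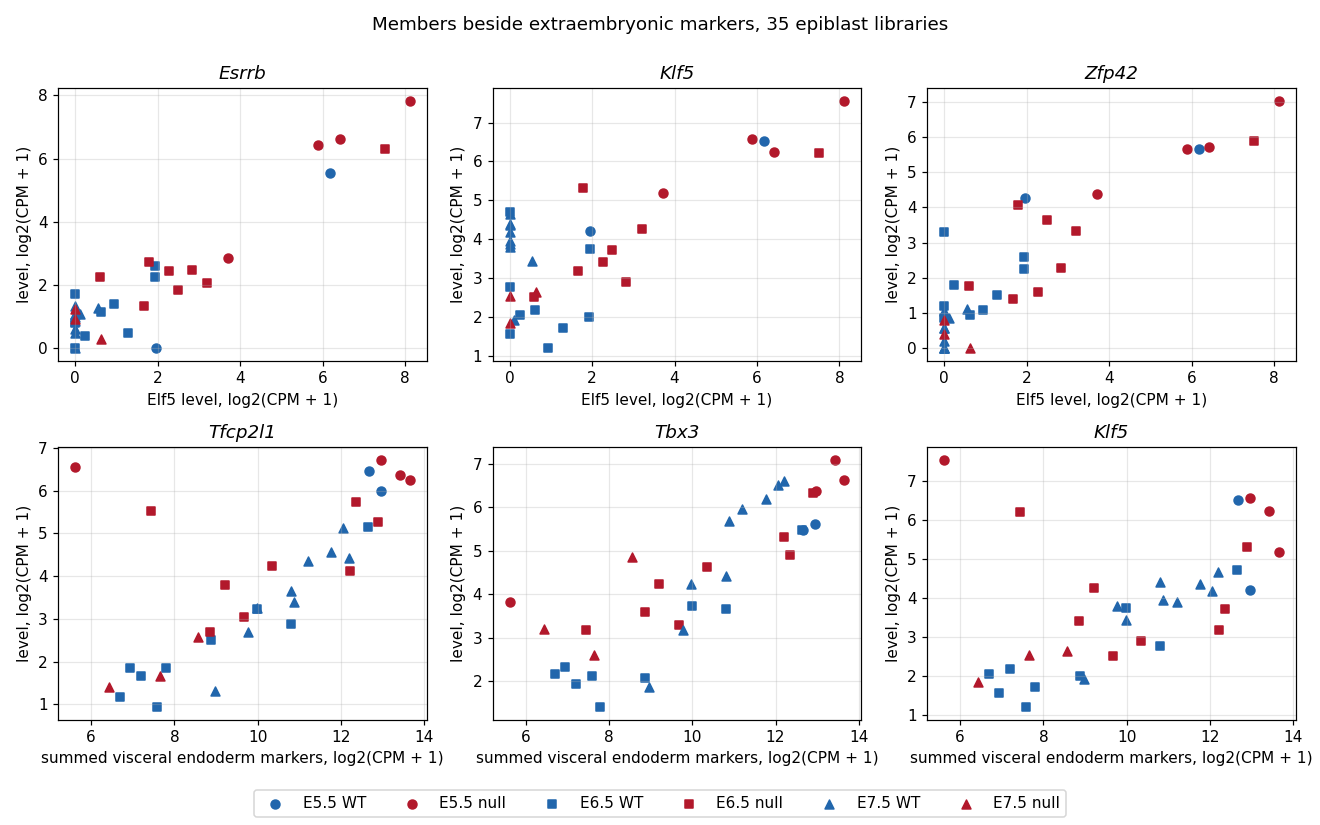
Level of single members (log2(CPM + 1), vertical axes) against Elf5 (top, log2(CPM + 1)) and against the summed visceral endoderm markers (bottom, log2(CPM + 1)) in 35 epiblast libraries; blue, WT; red, Stat3 null; circles E5.5, squares E6.5, triangles E7.5. The 5 libraries over 50 CPM of Elf5 hold 45.8 to 226 CPM of Esrrb, and at E7.5 Tbx3 is lowest (2.63 CPM) in a WT epiblast with 501 CPM of visceral endoderm markers.

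At E7.5 the direction was the opposite: null epiblasts held less *Klf5*, *Tfcp2l1*, *Tbx3* and *Klf4* RNA than most WT epiblasts. *Klf5* stood at -1.81 (SE 0.482, edgeR adjusted p = 0.0603), *Tfcp2l1* at -2.32 (SE 0.790, adjusted p = 0.126), *Klf4* at -1.15 (SE 0.402, adjusted p = 0.124), *Tbx3* at -1.73 (SE 1.05, adjusted p = 0.425) and *Klf2* at -1.27 (SE 1.36, adjusted p = 0.714). *Esrrb*, *Zfp42*, *Nr0b1* and *Nr5a2*, all low by then in both genotypes, lay between -0.37 and 0.36. No member passed, beside 1.17% of all 19680 genes, and 3 had an unadjusted p under 0.05, beside 19.7%. DESeq2 and voom with sample quality weights each called the same 3 members, *Klf4*, *Klf5* and *Tfcp2l1*, where they called 5.22% and 6.09% of all genes. No member separated the groups, as 3.92% of all genes did. The median of the members was -1.15 against -0.02 over all genes.

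By edgeR's test the calls of *Klf4*, *Klf5* and *Tfcp2l1* turned on 1 WT epiblast, whereas DESeq2 and voom made them with it included. How many of all genes passed without that epiblast was not counted. Without E7.5 WT 3, *Klf5* (-1.95, edgeR adjusted p = 0.000531), *Tfcp2l1* (-2.47, adjusted p = 0.0123) and *Klf4* (-1.25, adjusted p = 0.0264) passed and were lower in null epiblasts. Visceral endoderm markers were lower in the null group as well: all 16 had a negative fold change and 5 passed edgeR's test (0 to 11 when single libraries were left out, the 11 without WT 3), among them *Spink1* (-2.59), *Sox17* (-1.89) and *Afp* (-3.67), and the summed level was 85.4 to 377 CPM in null against 501 to 4684 CPM in WT epiblasts. Compared with WT 2 and 3 alone, the WT epiblasts under 1000 CPM, the fold changes were -0.89 for *Klf5*, -0.24 for *Tfcp2l1*, -1.07 for *Klf4* and 1.38 for *Tbx3*, whose sign was then the opposite, and none passed (edgeR adjusted p = 0.9995 for each). *Elf5* was at most 0.552 CPM in all 12 epiblasts of this day. All 6 epiblast markers had a positive fold change (median 1.29) and all 7 endothelium markers a negative one (median -2.02), with none past the test, and the part of these tissues in the differences was not tested.

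**Figure D4:**
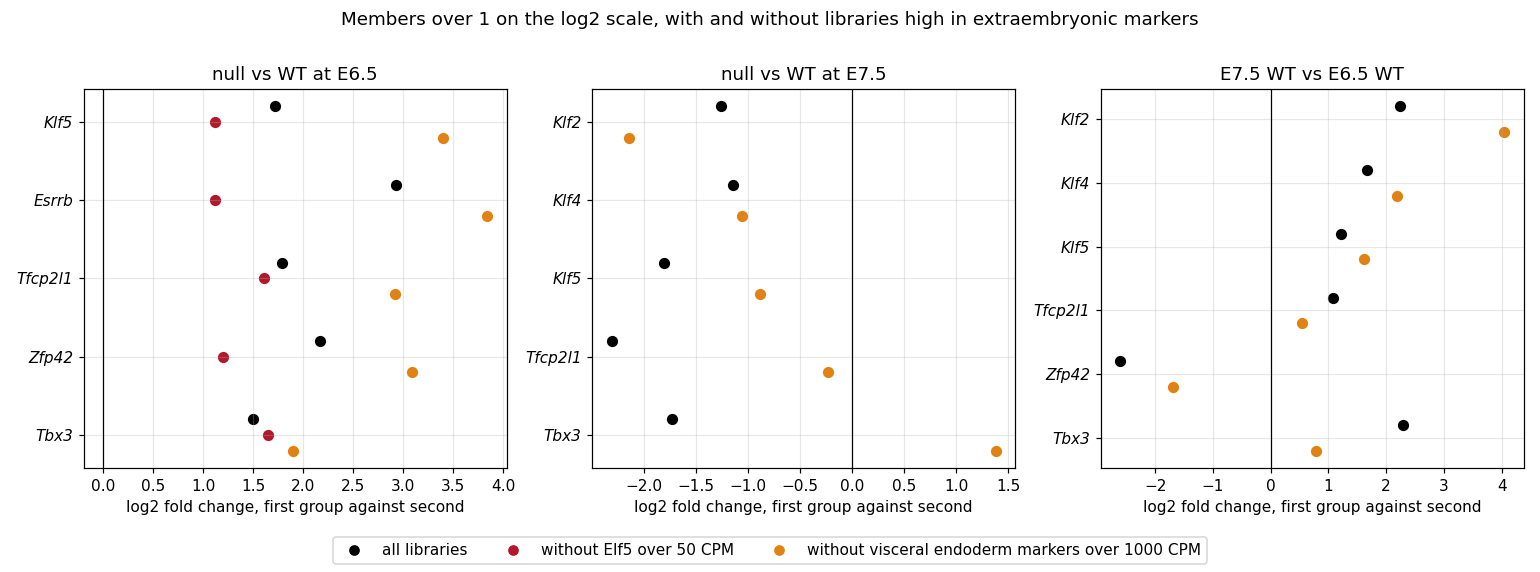
Log2 fold change (horizontal axis, no error bars) of the members over 1 in absolute log2 fold change in null against WT at E6.5 and E7.5 and in E7.5 WT against E6.5 WT: with all libraries (black), without those over 50 CPM of Elf5 (red) and without those over 1000 CPM of visceral endoderm markers (orange). At E7.5 Tfcp2l1 moves from -2.32 to -0.24 and Tbx3 from -1.73 to 1.38.

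The genotype effect itself was set against stage in 1 fit of all 35 epiblasts. From E6.5 to E7.5 it turned toward lower levels in null epiblasts in 7 of the 9 members, with a median of -3.00 against -0.02 over all 24126 genes. *Tfcp2l1* stood at -4.13 (SE 1.17, edgeR adjusted p = 0.0989), *Klf5* at -3.55 (SE 1.10, adjusted p = 0.130), *Tbx3* at -3.26 (SE 1.26, adjusted p = 0.226), *Klf2* at -3.14 (SE 2.39, adjusted p = 0.660), *Esrrb* at -3.00 (SE 1.73, adjusted p = 0.485), *Zfp42* at -2.56 (SE 1.45, adjusted p = 0.473) and *Klf4* at -2.03 (SE 0.961, adjusted p = 0.351), while *Nr0b1* and *Nr5a2* stood at 0.20 and 0.16. None passed, beside 0.245% of all genes, and 4 had an unadjusted p under 0.05, beside 13.4%. DESeq2 called 2 (*Klf5* and *Tfcp2l1*), beside 2.45% of all genes, and voom with sample quality weights 4 (these and *Klf4* and *Tbx3*), beside 6.17%. Without E6.5 WT 3, *Tfcp2l1* (-5.09, edgeR adjusted p = 0.00829) and *Klf5* (-4.20, adjusted p = 0.0311) passed, and without E7.5 WT 3 *Tfcp2l1* did (-4.28, adjusted p = 0.0381). Without the libraries over 50 CPM of *Elf5* no member passed. *Esrrb* then stood at -1.21, *Zfp42* at -1.60, *Klf5* at -2.96 and *Tfcp2l1* at -3.95. With all libraries, the same change was negative in all 16 visceral endoderm markers (median -4.85). It was negative in 10 of 11 extraembryonic ectoderm markers (median -4.16), and the part of these tissues was not tested. From E5.5 to E6.5 the effect differed by -3.72 in *Nr0b1* (SE 2.64, edgeR adjusted p = 0.983), 1.99 in *Klf4* (SE 1.06, adjusted p = 0.887), 1.52 in *Tfcp2l1* (SE 1.18), 1.26 in *Zfp42* (SE 1.49) and 1.004 in *Klf2* (SE 2.53), the last 3 each with adjusted p = 0.9999. *Klf5*, *Esrrb*, *Tbx3* and *Nr5a2* lay between 0.09 and 0.84. Of the 9 members 0 were called by any of the 3 tools, beside 0.0166% of all genes with edgeR, 0.443% with DESeq2 and 0.0705% with voom, and 0 at an unadjusted p under 0.05, beside 5.96%.

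EpiSCs kept a part of the set only. Over the 4 lines *Klf5* was read at 16.5 and 18.04 CPM in null lines 2 and 6 and at 27.9 and 27.3 CPM in WT lines 8 and 13. *Tfcp2l1* was at 6.01 and 7.41 CPM in the null and at 9.18 and 11.2 CPM in the WT lines. *Klf2* was at 2.62 and 3.36 CPM against 3.88 and 3.54 CPM, and so these 3 members were each lower in both null lines than in both WT lines. *Klf4* was at 1.44 and 1.66 CPM against 1.83 and 2.095 CPM, and *Esrrb* at 0.953 and 0.610 CPM against 1.11 and 2.13 CPM, with the same order. *Zfp42* was at 0 counts in all 4 lines, which with the depth of each allows at most 0.0235 to 0.0473 CPM. *Tbx3* (0.125 to 0.370 CPM), *Nr0b1* (0 to 0.0762 CPM) and *Nr5a2* (0.389 to 0.610 CPM) overlapped between the genotypes.

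Of the 7 members tested, all had a negative fold change in null EpiSCs, and 5 of 7 were lower in both null lines without overlap, where 20.6% of all 20736 genes were. *Klf5* differed most in relation to its error (-0.68, SE 0.103, edgeR adjusted p = 0.102), followed by *Tfcp2l1* (-0.61, SE 0.185, adjusted p = 0.368) and *Esrrb* (-1.06, SE 0.438, adjusted p = 0.543). No member passed, beside 0.106% of all genes, and 3 had an unadjusted p under 0.05, beside 9.09%, while DESeq2 and voom with sample quality weights called 0 members, beside 1.04% and 0.0772% of all genes. The median of the members was -0.35 against -0.01 over all genes, and *Stat3* itself stood at -2.63 (adjusted p = 0.00707). The fold changes were under 1 log2 unit in size in each member tested but *Esrrb*, and with 2 lines a genotype the p-values measure the spread between lines.

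**Figure D5:**
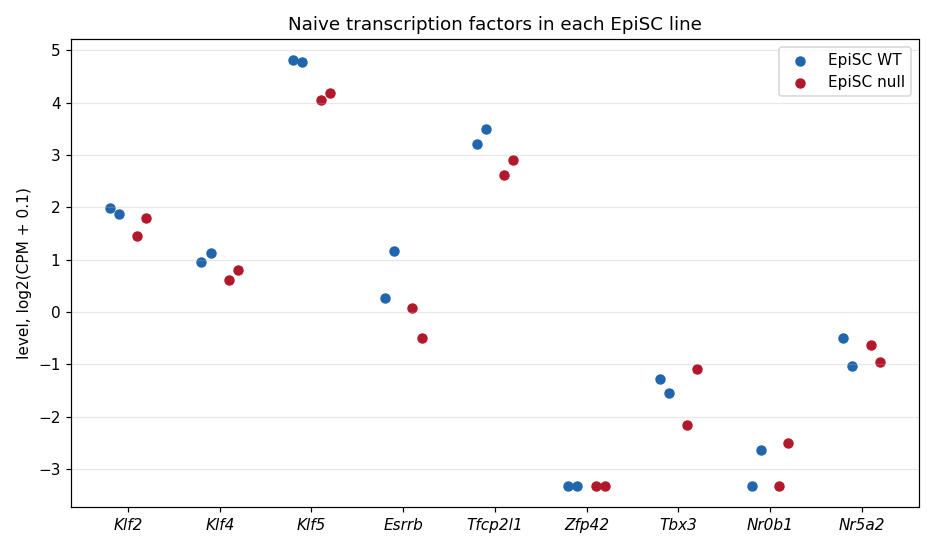
Level of each member in the 4 EpiSC lines (log2(CPM + 0.1), vertical axis) by genotype. Both null lines lie below both WT lines for Klf2, Klf4, Klf5, Esrrb and Tfcp2l1, and Zfp42 is at 0 counts in all 4.

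The order of the 6 epiblast groups by mean log2 CPM put an E5.5 group first in all 9 members: the null group in *Klf5*, *Esrrb*, *Tfcp2l1*, *Zfp42*, *Tbx3* and *Nr0b1*, the WT group in *Klf2*, *Klf4* and *Nr5a2*. The null means include E5.5 null 1, the library that goes against its label. *Nr0b1* stood at 3.91 log2 CPM there and at 3.41, -4.19 and -1.34 in null 2, 3 and 4. The E7.5 WT mean was -0.62, and on these values E7.5 WT would come first in *Nr0b1* without null 1. Of the 45 neighbouring pairs in these orders, 1 was apart by more than 1 SD on both sides, E5.5 WT (6.21 ± 0.34 log2 CPM, SD, n = 2) above E6.5 null (4.21 ± 1.2, n = 8) in *Tfcp2l1*. In all other neighbours the ranges of 1 SD overlapped, which does not show that the groups were equal. *Zfp42* in E6.5 WT and E7.5 WT is such a pair, and it passed edgeR's test (-2.61, adjusted p = 0.0255). *Klf5* and *Tfcp2l1* shared 1 order, E5.5 null, E5.5 WT, E6.5 null, E7.5 WT, E6.5 WT and E7.5 null, whereas in *Zfp42* both E7.5 groups came last. Compared per kilobase of exon, *Zfp42* led in E5.5 WT (18.1 CPM per kb), followed by *Klf5* (10.48), *Tfcp2l1* (7.93) and *Tbx3* (6.89). In E7.5 WT *Tbx3* led (7.02 CPM per kb) before *Klf5* (2.88), and in WT EpiSCs *Klf5* (5.31) before *Klf2* (2.01) and *Tfcp2l1* (1.08). The EpiSC levels come from another library kit and table, so they stand beside the epiblast levels with no test.

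The members fell into patterns that can be described by their correlation over the 35 epiblast libraries (log2 CPM, Pearson r). These libraries share stage, genotype and admixed tissue, so no p is given. *Klf5* and *Tfcp2l1* were most alike (r = 0.90, and 0.77 after group means were removed), followed by *Tfcp2l1* and *Tbx3* (0.80 and 0.74), while *Esrrb* and *Zfp42* reached 0.65 and 0.35. Among the 15106 genes with a mean of at least 1 CPM, the nearest to *Tfcp2l1* were *Gab1* (0.95), *Slc7a8* (0.94) and *Morc4* (0.94), and the nearest to *Klf5* were *Gab1* (0.91), *Arid5b* (0.91) and *N4bp2* (0.91). *Zfp42* was nearest to *Trim6* (0.89), *Mta3* (0.89) and *Jade1* (0.88), *Esrrb* to *Bmp8b*, *Rhox4g* (both 0.83) and C230085N15Rik (0.81), and *Tbx3* to *Abca3* (0.88), *Cotl1* (0.87) and *Sccpdh* (0.87). *Klf4* was nearest to *Rbms2* (0.80), *Umad1* (0.78) and *Sat1* (0.78), and *Klf2* to *Mpzl1* (0.72), *Ctdspl* (0.71) and *Flii* (0.71). The likeness was lower for *Nr5a2* (*Gm28800* 0.73, *Sdsl* 0.70, *Six3os1* 0.70) and for *Nr0b1* (*Agap3* 0.67, *P4htm* 0.64, F730043M19Rik 0.64). Of these 27 genes, 9 were also among the nearest 3 by Spearman's rho and 7 after group means were removed.

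Other pluripotency genes gave a frame for these changes. In WT epiblasts from E5.5 to E6.5, 3 of 8 other naive-associated genes passed edgeR's test, beside 5.15% of all genes. *Dppa5a*, an RNA-binding marker of pluripotent cells, fell by 3.07, the DNA dioxygenase *Tet2* fell by 1.66, and *Nanog*, a core factor shared by several states, rose by 3.11 on the log2 scale. *Pou5f1* (1.40) of 5 core genes and *Foxd3* (1.69) of 12 primed and formative genes also rose. From E6.5 to E7.5 all 6 tested passed: *Gbx2*, which also patterns the posterior embryo, rose by 7.51, *Tet2* rose (1.26), and *Dppa5a* (-5.74), *Dppa2* (-6.95), *Dppa4* (-6.28) and *Nanog* fell (-1.21). At that step 7 of 12 primed and formative genes fell, *Dnmt3a*, *Nodal*, *Etv5* and *Otx2* with the smallest p (-1.10, -2.87, -1.67 and -1.41), and so did *Tdgf1* of the core genes (-4.36). Of all genes, 5.74% passed upward and 3.09% downward there. In null epiblasts, *Dppa5a* (-2.41) and *Dppa4* (-2.61) fell and *Sox2* (1.89) and *Dnmt3b* (1.13) rose from E5.5 to E6.5, and *Dppa4* and *Dppa5a* fell from E6.5 to E7.5 (-11.13 and -7.44). None of these genes passed in null against WT epiblasts on any day or in EpiSCs. At E7.5, however, 3 other naive-associated, 2 core and 10 primed and formative genes passed when WT 3 was left out. So did 11 visceral endoderm and 5 epiblast markers, and the share of all genes called was not counted in that fit. From E5.5 to E6.5 in WT epiblasts, single libraries left out gave 0 to 4 other naive-associated and 0 to 2 primed and formative genes past the test.

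In the LIF and STAT3 pathway, *Stat3* fell from E5.5 to E6.5 in both genotypes (-1.74 in WT and -1.97 in null, edgeR adjusted p = 0.0198 and 0.0370). In WT epiblasts the kinases *Jak2* (-2.61) and *Jak1* (-1.17) and the IkB-like coactivator *Bcl3* (-7.17) fell with it, so that 4 of 12 passed, all downward, beside 5.15% of all genes. Single libraries left out gave 1 to 4, the 1 without E5.5 WT 1. From E6.5 to E7.5 *Il6st* (1.41) and *Jak2* (1.69) rose in WT epiblasts, 2 of 11 tested. In null against WT epiblasts at E7.5, *Jak2* was lower (-1.70, SE 0.343, adjusted p = 0.0324) beside *Stat3* (-3.31, SE 0.439, adjusted p = 0.00808), 2 of 11, and the change of the *Jak2* effect from E6.5 to E7.5 passed its own test (-3.72, SE 0.696, adjusted p = 0.0226). With single libraries left out the pathway held 0 to 3 calls at E7.5, the 0 without null 2, and 0 to 2 in the change of the effect. At E5.5 and E6.5 no gene of this pathway passed between genotypes, *Stat3* included (-1.41, adjusted p = 0.999, and -1.60, adjusted p = 0.334), and in EpiSCs *Stat3* alone did. Among 7 primordial germ cell genes, *Prdm1*, which is also expressed in visceral endoderm, rose in WT epiblasts from E6.5 to E7.5 (1.82) and was lower in E7.5 null than in WT epiblasts (-2.51, adjusted p = 0.0207), and no other passed. The second of these calls was lost without any 1 of the 3 null epiblasts.

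The tissue markers moved with stage as follows. Of 11 extraembryonic ectoderm markers, *Ets2* (-1.39), *Cdx2* (-3.98) and *Gata3* (-4.83) fell in WT epiblasts from E5.5 to E6.5 and *Plet1* (-3.10) fell in null epiblasts. Single libraries left out moved both counts between 0 and 8, in WT with 0 without E5.5 WT 1 and 8 without E6.5 WT 3. *Cdx2* (6.49), *Gata3* (3.93) and *Hand1* (4.34), which the mesoderm and posterior embryo also express, rose in WT epiblasts from E6.5 to E7.5. Of the 7 endothelium markers, *Pecam1* fell at the first of these steps (-3.24) and *Kdr*, the mesodermal VEGF receptor, rose at the second (8.04), both in WT epiblasts. Of the 6 epiblast markers, *Otx2*, *Tdgf1*, *Utf1* (-2.69) and *Nanog* fell in WT epiblasts from E6.5 to E7.5. No blood, macrophage or decidua marker passed in any comparison, and no marker of any tissue passed between genotypes apart from the visceral endoderm genes at E7.5. Without E7.5 WT 3, 5 epiblast and 3 extraembryonic ectoderm markers passed there as well.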

How the data were processed

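Total RNA of single epiblasts (PicoPure extraction, SMARTer Stranded Total RNA-Seq v2 libraries) and of EpiSC lines (RNeasy extraction, NEBNext Ultra II libraries) was sequenced. Per the labels, the authors trimmed reads with Trim Galore, aligned them to GRCm38 (mm10) with HISAT2 and counted them with StringTie, and they deposited raw counts per gene in 1 table for epiblasts and 1 for EpiSCs. The annotation release and strand setting are not given in the sources used here. Of 47643 identifiers, 47224 matched GENCODE vM21, which gave positions and exon lengths, and 7 of 9 members matched with the same version. All value columns were mapped to samples.

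Groups and replicate numbers came from the labels, and each library is a separate embryo or line. The tests used the quasi-likelihood method of edgeR 4.0.16 (R 4.3.3) after TMM scaling, with the robust option, genes kept by filterByExpr (count of at least 10, total of at least 15), two-sided p-values and a Benjamini-Hochberg correction over the genes tested; each comparison was made on its own groups and the genotype by stage effect was tested on all 35 epiblast libraries. A gene was called at an absolute log2 fold change over 1 and an adjusted p under 0.05. Limits from 0 counts cover counting error only. Log2 CPM used a prior count of 2. Alternatives were DESeq2 1.42.0, limma 3.58.1 (voom with sample quality weights), other scaling and filters, the replicate number as a block, and leaving out each library. The fits were tested on simulated data. Leaving out libraries by *Elf5* or visceral endoderm markers and the split by depth were chosen after seeing the data.

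The members and the gene lists were chosen with earlier results of these data known. The 9 members are named in every comparison, with full statistics above an absolute log2 fold change of 1; list genes are named where called, at most 4 a list and comparison, and 1 of them is not reported here. Extraembryonic ectoderm, visceral endoderm, epiblast, endothelium and blood lists served as tissue checks. No library duplicated another.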

Additional observations from a re-analysis of the deposited data

Results flagged for a closer look

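Within groups of 4 to 10 libraries, 5 of the 36 pairs of member and epiblast group with enough libraries held 1 library whose log2 CPM lay far from the rest by Dixon's criterion at 95%. For normally distributed values chance gives about 1 in 20. That rate need not hold here, since the log2 CPM of a count of 0 is set by the prior count. The flagged values of *Klf4* and *Nr0b1*, and that of *Esrrb* in E7.5 WT 8, are such counts. *Klf4* was at 0.0 CPM in E6.5 WT 3, against 0.850 to 4.85 CPM in the other 8. *Klf5* was at 2.78 CPM in E7.5 WT 3, against 9.83 to 24.3 CPM in the other 8, and that epiblast also held the most epiblast marker RNA of its group (1179 CPM). *Esrrb* was at 77.91 CPM in E6.5 null 1, the epiblast with 182 CPM of *Elf5*. *Esrrb* was at 0.0 CPM in E7.5 WT 8 and *Nr0b1* at 0.0 CPM in E7.5 WT 6, where the other epiblasts of the group held at most 1.54 and 2.08 CPM.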

How the results depend on the processing

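The counts of members called moved with the tool. DESeq2 called 3 members between null and WT at E7.5, 4 from E5.5 to E6.5 in WT, 3 there in null, 3 from E6.5 to E7.5 in null and 2 in the genotype by stage effect at E7.5. Voom with sample quality weights called 2 between genotypes at E6.5, 3 at E7.5, 6 from E5.5 to E6.5 in WT, 5 there in null, 5 from E6.5 to E7.5 in WT and 4 in the effect at E7.5. From E5.5 to E6.5, 1 fit of all 35 epiblasts called 4 in WT and 1 in null, a mean count of at least 50 called 3 and 1, and no robust option called 3 in WT. Leaving out single libraries gave 0 to 5 (WT) and 0 to 4 (null) there, 1 to 5 from E6.5 to E7.5 in WT, 0 to 3 between genotypes at E7.5 and 0 to 2 in the effect at E7.5. The share of all genes called was counted only for the main edgeR fit, DESeq2 and voom. Counts of members from the other fits therefore stand without it. Without libraries over the *Elf5* limit 0 were called from E5.5 to E6.5 in WT, and without those over the visceral endoderm limit, or either limit, 0 from E6.5 to E7.5. Direction changed in *Esrrb* from E5.5 to E6.5 in WT (voom 0.33, replicate block 0.37, without E5.5 WT 1, which left 1 library at 0 counts, 9.15; single libraries -4.76 to 9.15). Without the *Elf5* libraries, which leaves E5.5 null 3 with 0 counts of both genes as the only E5.5 null library, it changed in null from E5.5 to E6.5 in *Klf2* (7.28) and *Nr0b1* (7.72; voom 0.042), and in the effect at E6.5 in *Nr0b1* (7.55). Without the visceral endoderm libraries, which leaves E5.5 null 1 alone, it changed in *Nr5a2* (1.51). It also changed in the effect at E6.5 in *Klf2* (single libraries -0.13 to 2.57). *Tbx3* at E7.5 changed direction under the block (0.36) and without visceral endoderm libraries or either kind (1.38 each). The cause was not tested. In no comparison with 3 or more same-numbered pairs did every pair correlate above 0.1 in its deviations (-0.27 to 0.39 over all), so the numbers were not taken as a pairing. Between genotypes at E6.5, where libraries 1 to 3 share the greater depth, the 8 pairs ran from -0.01 to 0.215. Pairs with unlike numbers were not correlated, so whether same-numbered libraries share a litter or batch was not tested. The replicate block left 0 members called from E5.5 to E6.5 in WT (*Zfp42* -3.87, edgeR adjusted p = 0.324). EpiSC lines share no number. The order of group means was the same in 8, 9 and 7 of 9 members under plain CPM, DESeq2's size factors and a prior count of 0.5.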
